A study of Mus musculus with 17 samples.

Results

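The genes described here are 10 enzymes that carry ethanol through acetaldehyde and acetate: the alcohol dehydrogenases Adh1, Adh4, Adh5, and Adh7, the microsomal oxidase Cyp2e1, catalase (Cat), the aldehyde dehydrogenases Aldh2, Aldh1a1, and Aldh1b1, and the acetyl-CoA synthetase Acss2. They were chosen by gene symbol from all probes of an Agilent mouse array. They are 10 of 21452 gene symbols and 16 of 41174 non-control probes. Of the 16 probes, 15 were bright enough to be tested, so that every gene had at least 1 tested probe. The probe left out was 1 of 4 for Acss2, which was well above background on 0 of 17 arrays.

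RNA from the livers of male mice was hybridized to arrays, each mouse on an array of its own, with 5 mice in the HFD+1B group and 4 each in the HFD, 1B, and chow groups. All mice ate their diet for 3 months and then received a single gavage. Chow mice ate chow and received maltose, 1B mice ate chow and received 1 binge of ethanol at 5 g/kg, HFD mice ate a high-fat diet and received maltose, and HFD+1B mice ate the high-fat diet and received the ethanol binge. The liver was collected 9 hours later. The strain is C57BL/6N in the sample labels and C57BL/6J in the methods, and no group carried a transgene or deletion in the labels. Liver cDNA carried Cy5, and every array also held the same reference RNA in Cy3, which the labels describe both as assorted mouse RNA and as liver. The design asks what the ethanol binge did in lean and in high-fat-fed mice, and what the diet did with and without ethanol.

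Ethanol is oxidized to acetaldehyde mainly by cytosolic alcohol dehydrogenases of hepatocytes, and in part by CYP2E1 in the endoplasmic reticulum and by catalase in peroxisomes. Aldehyde dehydrogenases then oxidize acetaldehyde to acetate, and both dehydrogenase steps reduce NAD to NADH. Acetate leaves the liver or is joined to coenzyme A by acetyl-CoA synthetases. ADH1 is the class I enzyme with high affinity for ethanol, ADH4 is the class II enzyme, ADH5 is the class III enzyme best known for oxidizing glutathione-bound formaldehyde, and ADH7 is the class IV enzyme of the stomach and other epithelia, also active on retinol.

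Each gene was read by 60-base probes, and the stretches below, taken from the deposited array table, show part of the probes behind the central results. The match of these probes to transcripts was not examined. Only 30 bases of a probe are printed. The probes of Adh4, Aldh1a1, Cyp2e1, and Adh7 are shown by their first 30 bases. For Adh1, the 30 bases shared by its 2 bright probes are printed in capitals: they close the probe used for the gene and open the second probe, so that these probes are not independent readings.
Adh4: atgccaggagcaacttggaatgttatctga
Adh1: TTTACCTTTCGAGAAAATAAATGAAGCATT
Aldh1a1: gactagttgtgacttaagctctgtccctca
Cyp2e1: agatccagagacatttaaacctgagcattt
Adh7: cagatgtggcatgtagagatgtagaaaatg
Over the 110 pairs of probes of different genes, the longest identical run was 9 bases.

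The 3 genes that were lower in 1B than in chow (Adh4, Adh1, and Aldh1a1) are shown by the 250 bases before their start in RefSeq (GRCm38.p6, plus strand). The windows are chr3:138415247-138415496 for Adh4, chr3:138277335-138277584 for Adh1, and chr19:20601718-20601967 for Aldh1a1, the second of 2 starts listed for that gene. Capitals mark matches on either strand to 5 short motifs, which are the TATA box (TATAAA), the CCAAT box, the nuclear receptor half-site (AGGTCA), the C/EBP motif (TTGCNNAA), and the D box (TTANGTAA).
Adh4: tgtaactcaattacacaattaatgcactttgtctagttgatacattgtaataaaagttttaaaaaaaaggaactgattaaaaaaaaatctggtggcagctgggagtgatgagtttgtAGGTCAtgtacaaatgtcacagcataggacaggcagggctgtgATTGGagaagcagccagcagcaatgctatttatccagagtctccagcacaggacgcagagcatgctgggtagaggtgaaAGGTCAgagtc
Adh1: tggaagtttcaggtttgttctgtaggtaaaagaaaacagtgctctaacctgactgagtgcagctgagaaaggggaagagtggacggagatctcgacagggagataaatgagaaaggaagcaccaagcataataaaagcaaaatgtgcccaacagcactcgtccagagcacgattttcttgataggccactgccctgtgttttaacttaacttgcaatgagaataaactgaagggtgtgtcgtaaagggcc
Aldh1a1: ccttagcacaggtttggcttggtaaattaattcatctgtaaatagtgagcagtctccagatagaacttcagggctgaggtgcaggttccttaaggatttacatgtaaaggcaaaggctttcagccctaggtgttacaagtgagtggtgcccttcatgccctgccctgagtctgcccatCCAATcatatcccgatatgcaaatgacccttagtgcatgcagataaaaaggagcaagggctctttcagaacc
Adh4 held AGGTCA beginning 133 and 11 bases before the start and CCAAT beginning 90 bases before it. Aldh1a1 held CCAAT beginning 72 bases before the start, and the Adh1 window held none of the 5 motifs. No match overlapped another. Among 32851 promoter windows of the same length, 14% held the half-site and 33.8% the CCAAT box, against 2 and 6 of the 11 windows listed for 9 of the 10 genes (Aldh2 had no entry). The TATA box was found in 12.4% of all windows and in 3 of the 11, the C/EBP motif in 9.56% and in 2, and the D box in 2.06% and in 0. These matches are letters in a window and were not tested as binding sites.

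Signals on these arrays were read as spot intensities, and the level of a gene is the log2 ratio of liver (Cy5) to reference (Cy3) after background correction and loess normalization within the array. A level of 0 means equal brightness in both channels, and levels are compared between mice for 1 probe and never between genes. The median Cy5 intensity of an array lay between 63 and 98 in HFD, and between 69 and 158 in the other 3 groups, and 73.9% to 86% of probes were well above background. A difference was called at a Benjamini-Hochberg adjusted p of 0.05 or less from limma, fitted on all 34664 tested probes and 17 arrays, with no fold threshold. Errors of differences are standard errors, and each gene is represented by its brightest tested probe. In whole liver, fewer cells of a type and less RNA per cell cannot be told apart. No spot of the 16 probes was saturated on any array.

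Ethanol lowered several of these transcripts 9 hours after the binge, and Adh4 was the gene with the largest difference in both diets. In 1B against chow, 3 of the 10 genes were lower (Adh4, Aldh1a1, and Adh1) and 1 was higher (Adh7). Of all 19358 genes tested, 4.13% were called in that comparison, 2.04% lower and 2.09% higher. Between HFD+1B and HFD, 4 genes were lower in HFD+1B (Adh4, Cyp2e1, Aldh1a1, and Cat) and 0 higher, where 19.4% of all genes were called, 8.39% lower and 11% higher. Between HFD and chow, 1 gene was lower in HFD (Adh4), where 11% of all genes were called, 6.48% lower and 4.5% higher. Against chow, HFD+1B had 4 lower genes (Adh4, Cyp2e1, Cat, and Adh5) and 0 higher ones, where 16.3% of all genes were called, 7.41% lower and 8.89% higher. Against 1B, HFD+1B had 2 higher genes (Aldh1a1 and Adh1) and 2 lower ones (Adh7 and Adh4), where 11.4% of all genes were called, 6.27% higher and 5.16% lower. The interaction, which is the ethanol difference under the high-fat diet minus that under chow, was called for 1 gene (Adh7, negative). Among all genes 4.39% were called there, 2.67% positive and 1.72% negative.

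Groups without overlap between their mice were counted as well. They were found for 5 of the 10 genes in 1B against chow (12% of all genes), for 3 in HFD against chow (19.3%), and for 4 in HFD+1B against chow (15.6%). They were found for 4 genes in HFD+1B against HFD (15.3%) and for 5 in HFD+1B against 1B (11.4%). The median log2 difference of the 10 genes was -0.31 for 1B against chow and -0.26 for HFD+1B against HFD, and that of all genes was 0.0079 and 0.0080. These comparisons share groups, so that they are not independent of each other.

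**Figure D1:**
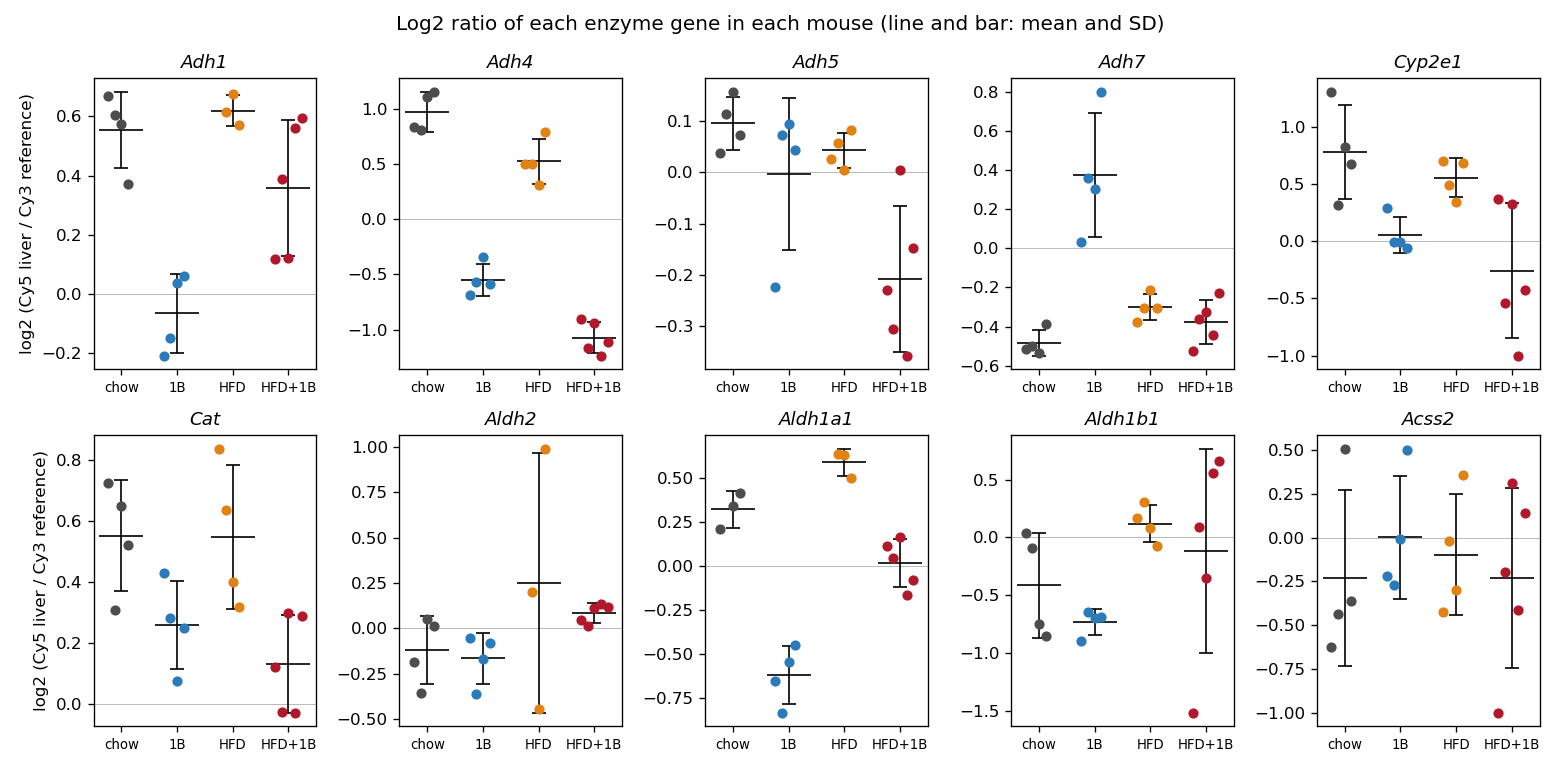
Log2 ratio of liver to reference (y axis) for each of the 10 enzyme genes in each mouse, by group (x axis), with 1 point per mouse and the mean and SD as line and bar. Adh4 separates the 2 groups given ethanol from the 2 given maltose, Adh7 is higher in the 1B group than in the other 3, and Aldh1b1 and Acss2 scatter within groups.

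Adh4, the class II alcohol dehydrogenase, fell after ethanol in both diets. Its log2 ratio was 0.83, 0.80, 1.11, and 1.15 in the 4 chow mice and -0.69, -0.57, -0.34, and -0.59 in the 4 1B mice. The HFD mice had 0.50, 0.49, 0.31, and 0.79, and the HFD+1B mice -0.91, -1.16, -0.94, -1.24, and -1.11. All 9 mice given ethanol lay below all 8 given maltose, and none of the 4 groups overlapped another. Adh4 was 2.87-fold lower in 1B than in chow (log2 difference -1.52 ± 0.12, limma adjusted p 2.05e-06). The HFD+1B mice were 3.02-fold below the HFD mice (-1.59 ± 0.11, adjusted p 5.61e-07). The interaction was -0.07 ± 0.16 with a 95% confidence interval of -0.42 to 0.27. The smallest exact permutation p was reached in both comparisons (0.0286 for 4 against 4 mice and 0.00794 for 4 against 5, two-sided).

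Adh4 was lower under the high-fat diet as well, by less and with calls that depended on the processing. HFD differed from chow by -0.45 ± 0.12 (limma adjusted p 0.024), and HFD+1B from 1B by -0.52 ± 0.11 (adjusted p 0.0064). HFD+1B against chow gave the widest gap, 4.13-fold lower (-2.04 ± 0.11, adjusted p 6.81e-09). Within the slides that held both groups, the Adh4 difference lay between -1.52 and -1.38 in 1B against chow (3 slides) and between -2.03 and -1.24 in HFD+1B against HFD (4 slides). For HFD against chow it lay between -0.85 and -0.31 (3 slides), and that difference passed in 11 of 16 other settings. Slide as a block and Cy5 signals alone (limma adjusted p 0.37) were among those where it did not pass. The HFD against chow difference also did not pass without chow mouse 3 or 4 or HFD mouse 3, with an adjusted p of up to 0.088 for Adh4. The call of Adh4 in HFD+1B against 1B was lost with median centring and with Cy5 signals alone (limma adjusted p 0.28).

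Adh1, the class I enzyme, fell after ethanol in chow-fed mice. The chow mice had log2 ratios of 0.67, 0.61, 0.58, and 0.37, and the 1B mice -0.21, -0.15, 0.04, and 0.06. In HFD, 3 mice had a value (0.61, 0.67, and 0.57), since the spot of HFD mouse 1 was marked as an outlier by the scanner software. The HFD+1B mice had 0.12, 0.39, 0.12, 0.56, and 0.59, which overlapped chow and HFD but not 1B. Adh1 was 1.54-fold lower in 1B than in chow (-0.62 ± 0.12, limma adjusted p 0.0056), with within-slide differences of -0.88 to -0.54 over 3 slides. HFD+1B differed from HFD by -0.26 ± 0.12 (adjusted p 0.15), which was not called. HFD+1B was above 1B by 0.42 ± 0.11 (adjusted p 0.023), and the interaction was 0.36 ± 0.17 (adjusted p 0.25), so that a difference in the ethanol response between the diets was not shown.

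The second bright Adh1 probe, which shares the 30 bases printed above, gave the same direction and had a value in all mice. It was lower in 1B than in chow by -0.55 (limma adjusted p 0.0086). HFD+1B also lay below HFD on that probe, by -0.43 (adjusted p 0.0089), where the probe used for the gene was not called. Another Adh1 probe was well above background on only 6 arrays and gave no call in any of the 6 comparisons. From Cy5 signals alone, without the reference, the fall of Adh1 in 1B had an adjusted p of 0.079. The rise in HFD+1B over 1B was lost when 1B mouse 1 or 2 or HFD+1B mouse 4 or 5 was left out, with an adjusted p of up to 0.078 for Adh1.

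Adh5, the class III enzyme, varied over a narrow range. Chow mice lay at 0.04, 0.11, 0.16, and 0.07, and HFD mice at 0.03, 0.06, 0.0039, and 0.08. The HFD+1B mice had -0.23, -0.31, 0.0038, -0.36, and -0.15, the highest of them just below the lowest HFD mouse. In 1B, mouse 1 lay at -0.22 and the other 3 mice between 0.04 and 0.09. Adh5 was 1.23-fold lower in HFD+1B than in chow (-0.30 ± 0.09, limma adjusted p 0.025), and the groups did not overlap. Against HFD the difference was -0.25 ± 0.09 (adjusted p 0.055), and in 1B against chow it was -0.10 ± 0.09 (adjusted p 0.76). The call against chow was lost in 6 of 16 other settings, median centring and Cy5 alone among them, and in the fits without chow mouse 2, 3, or 4 or HFD+1B mouse 2 or 4.

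Adh7, the class IV enzyme, was dim and was the only one of the 10 genes called higher after ethanol. Its raw Cy5 intensity was 36 to 146.5 over the 17 mice, and it was well above background on 16 arrays, all but that of HFD mouse 1. The log2 ratio of Adh7 was -0.52, -0.50, -0.54, and -0.39 in chow and 0.03, 0.36, 0.30, and 0.80 in 1B. The HFD mice had -0.38, -0.30, -0.21, and -0.31, and the HFD+1B mice -0.52, -0.36, -0.32, -0.44, and -0.23. The 4 1B mice lay above the other 13. Adh7 was 1.82-fold higher in 1B than in chow (0.86 ± 0.12, limma adjusted p 0.00041), and HFD+1B differed from HFD by -0.08 ± 0.12 (adjusted p 0.71). The test of that difference, the interaction, was -0.94 ± 0.17 (adjusted p 0.0075). HFD+1B lay below 1B by 1.68-fold (-0.75 ± 0.12, adjusted p 0.00048).

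Within the 3 slides that held both groups, Adh7 was higher in 1B than in chow by 0.55 to 0.86. The size of the rise moved with the background correction of this dim probe: Adh7 rose by 1.23 with an offset of 10 and by 1.43 in the deposited log ratios, where the interaction was not called. From Cy5 signals alone the rise had an adjusted p of 0.072 for Adh7. Leaving out any 1 mouse kept the rise between 0.72 and 0.97 and the call in all 17 fits.

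Cyp2e1, the ethanol-inducible cytochrome P450, was lower after ethanol in high-fat-fed mice at the level of its RNA. The chow mice had 1.31, 0.32, 0.83, and 0.67 and the HFD mice 0.70, 0.49, 0.34, and 0.69. The HFD+1B mice had 0.37, -0.54, 0.32, -1.004, and -0.43, of which mice 1 and 3 lay within the chow range and the other 3 below all chow and HFD mice. The 1B mice had 0.29, -0.0033, -0.0081, and -0.06, below all chow mice. HFD+1B was 1.76-fold below HFD in Cyp2e1 (-0.81 ± 0.24, limma adjusted p 0.024) and 2.05-fold below chow (-1.04 ± 0.24, adjusted p 0.0057). In 1B against chow the difference was -0.73 ± 0.25 (adjusted p 0.15), which was not called, and the interaction was -0.09 ± 0.34 (adjusted p 0.92). Within slides the HFD+1B minus HFD difference of Cyp2e1 ran from -1.69 to -0.02 over 4 slides. With median centring that difference was -0.55 (limma adjusted p 0.11) and was not called. The call was also lost with only those groups in the fit and with an unmoderated test.

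Catalase (Cat), the peroxisomal enzyme that breaks down hydrogen peroxide, was also lower in HFD+1B. Chow mice had 0.73, 0.31, 0.65, and 0.52, 1B mice 0.43, 0.28, 0.08, and 0.25, and HFD mice 0.84, 0.64, 0.40, and 0.32. The HFD+1B mice had 0.12, -0.02, 0.30, -0.03, and 0.29, all below the lowest chow and HFD mouse. HFD+1B was 1.34-fold below HFD in Cat (-0.42 ± 0.12, limma adjusted p 0.023) and 1.34-fold below chow (-0.42 ± 0.12, adjusted p 0.024). In 1B against chow it differed by -0.29 ± 0.13 (adjusted p 0.30). With median centring, which moved the median of all genes there to 0.14, Cat was at -0.18 in HFD+1B relative to HFD (adjusted p 0.30). The calls of Cat and Cyp2e1 rested on single mice in part. Against HFD, both were lost without HFD mouse 1 or HFD+1B mouse 2 or 4, that of Cyp2e1 also without HFD mouse 4, and that of Cat also without HFD mouse 2, with an adjusted p of up to 0.068 for Cyp2e1 and 0.078 for Cat. Against chow, that of Cat was lost without chow mouse 1, 3, or 4 or HFD+1B mouse 2 or 4 (adjusted p up to 0.079), and that of Cyp2e1 passed without any 1 mouse.

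Aldh1a1, the cytosolic aldehyde dehydrogenase that also oxidizes retinal, fell after ethanol in both diets. The log2 ratio of Aldh1a1 was 0.21, 0.34, and 0.41 in the 3 chow mice with a value and -0.65, -0.84, -0.55, and -0.45 in 1B. It was 0.64, 0.63, and 0.50 in the 3 HFD mice with a value and 0.11, 0.04, 0.17, -0.16, and -0.08 in HFD+1B. None of the 4 groups overlapped another, and their order from the highest was HFD, chow, HFD+1B, and 1B. Chow mouse 2 and HFD mouse 1 had outlier spots and entered the fit without a value. Aldh1a1 was 1.93-fold lower in 1B than in chow (-0.95 ± 0.11, limma adjusted p 0.00014) and HFD+1B lay 1.49-fold below HFD (-0.57 ± 0.11, adjusted p 0.0018). HFD+1B lay above 1B by 1.56-fold (0.64 ± 0.10, adjusted p 0.00065). The neighbors in that order were not all distinguished: HFD differed from chow by 0.27 ± 0.12 (adjusted p 0.17) and HFD+1B from chow by -0.31 ± 0.11 (adjusted p 0.065). The interaction was 0.37 ± 0.15 (adjusted p 0.19).

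Within slides the Aldh1a1 difference was -0.89 and -0.86 in 1B against chow on the 2 slides with both groups, and -0.72 to -0.46 in HFD+1B against HFD over 3 slides. From Cy5 signals alone the adjusted p was 0.20 in 1B against chow and 0.15 in HFD+1B against HFD. With median centring, which moved the median of all genes in HFD+1B minus HFD to 0.14, the Aldh1a1 difference there was -0.40 and was not called.

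Aldh2, the mitochondrial enzyme that carries most acetaldehyde oxidation, had no called difference. It lay between -0.36 and 0.05 over the 8 chow and 1B mice and between 0.01 and 0.13 in the HFD+1B mice. The 3 HFD mice with a value ranged more widely, from -0.44 in mouse 3 to 0.99 in mouse 4. In 1B against chow Aldh2 differed by -0.05 ± 0.20, with a 95% confidence interval of -0.47 to 0.38. HFD+1B differed from HFD by -0.17 ± 0.21, with an interval of -0.61 to 0.27 that rests on those HFD mice. The spot of HFD mouse 4 was dim in both channels, at 1493 in Cy5 and 1633.5 in Cy3, where the other mice had at least 5570 and 10191. Without HFD mouse 3, HFD exceeded chow by 0.72 with an adjusted p of 0.024 for Aldh2, a value that rests on HFD mice 2 and 4. From Cy5 signals alone HFD minus chow was -0.99 (adjusted p 0.37), the opposite sign. A second Aldh2 probe, with all 17 values, was called in no comparison. It differed by -0.04 in HFD against chow, -0.24 in 1B against chow, and 0.07 in HFD+1B against HFD. In HFD+1B against 1B the probe used for Aldh2 differed by 0.25 (limma adjusted p 0.52) and the second probe by 0.26 (adjusted p 0.12). On both probes those groups did not overlap, which held for 11.4% of all genes.

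Aldh1b1, another mitochondrial aldehyde dehydrogenase, varied widely within chow and HFD+1B. The chow mice had 0.04, -0.09, -0.75, and -0.85, the 1B mice lay between -0.89 and -0.65, and the HFD mice between -0.07 and 0.30. In HFD+1B it ran from -1.52 in mouse 1 to 0.66 in mouse 5. No comparison of Aldh1b1 was called, and the confidence interval of HFD+1B minus HFD was -0.90 to 0.43. Without HFD+1B mouse 1, HFD+1B exceeded 1B by 0.97 (limma adjusted p 0.0068) and chow by 0.65 (adjusted p 0.049).

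Acss2, which makes acetyl-CoA from acetate in the cytosol and nucleus, also had no called difference. It ran from -0.63 to 0.51 over the chow mice and from -0.27 to 0.50 over the 1B mice. The HFD mice spanned -0.43 to 0.35, and the HFD+1B mice -1.002 to 0.31. Acss2 differed by 0.23 ± 0.28 in 1B against chow (95% confidence interval -0.35 to 0.81) and by -0.13 ± 0.26 in HFD+1B against HFD (-0.68 to 0.42). A second bright Acss2 probe ranged from -0.69 to 0.43 over the 17 mice and was not called in any comparison. A change of Acss2 smaller than these intervals was not detectable here.

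**Figure D2:**
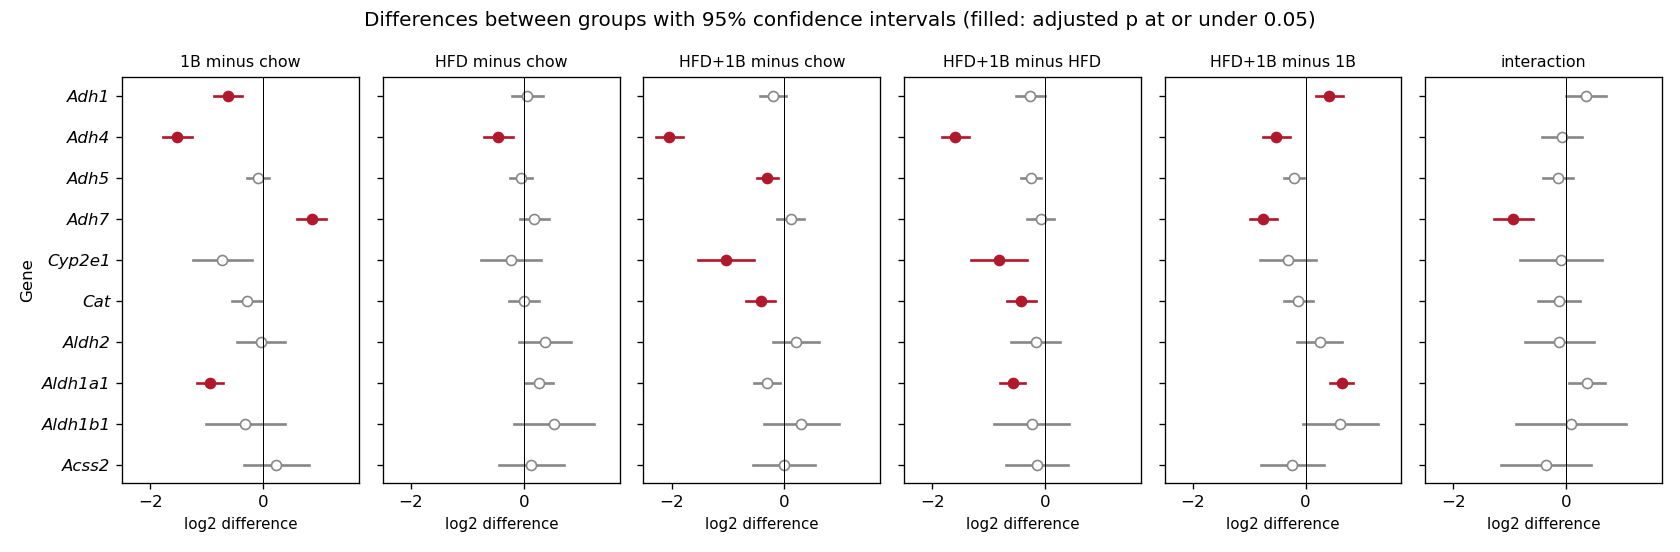
Log2 difference (x axis) of the 10 enzyme genes (y axis) in the 6 comparisons, as point and 95% confidence interval from limma. Filled red points passed the adjusted threshold: Adh4 is lower in all 5 comparisons of groups, and Adh7 is the gene called in the interaction.

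The genes around the pathway were counted in lists, to be read beside the shares of all 19358 genes. Those shares were 2.04% lower and 2.09% higher in 1B against chow, and 6.48% and 4.5% in HFD against chow. They were 7.41% lower and 8.89% higher for HFD+1B against chow, and 8.39% and 11% for HFD+1B against HFD. A count of 1 gene, or 2 of 26 peroxisomal genes higher in HFD+1B against chow, is no more than these shares or within 1 gene of them, and is given as a count only. The same holds for 2 of 19 regulators higher and 2 of 20 lipogenic genes lower in that comparison. It also holds in HFD+1B against HFD for 2 of 15 acetate genes, 2 of 20 redox genes, and 2 of 11 hepatocyte markers higher.

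Some other alcohol dehydrogenases and related enzymes were lower after ethanol too. Of 13 tested genes in a list of other alcohol dehydrogenases and alcohol-oxidizing enzymes, 4 were lower and 0 higher in 1B against chow, with a median of -0.19. Between HFD+1B and HFD, 5 were lower and 0 higher (median -0.34). Sord, the sorbitol dehydrogenase, was lower by -0.75 in 1B (limma adjusted p 0.0068) and by -0.89 in HFD+1B against HFD (adjusted p 0.00047). Dhrs3, a retinal reductase, fell by 0.71 and 0.78 on the log2 scale in these comparisons (adjusted p 0.033 and 0.0047). Rdh7, a retinol dehydrogenase, fell by 0.57 and 0.36 (adjusted p 0.014 and 0.039). The number lower over the other scalings and filters was 0 to 4 in 1B and 1 to 5 in HFD+1B against HFD.

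Of 19 other aldehyde dehydrogenases and oxidases, 1 was lower in 1B against chow (median -0.07) and 4 were lower in HFD+1B against chow (median 0.03), with 0 higher in both. Aox3, an aldehyde oxidase, fell by 1.18 in HFD+1B against chow (limma adjusted p 0.00011) and by 0.75 against HFD (adjusted p 0.0053). Aldh8a1, which oxidizes retinal, fell by 0.61 in HFD+1B against chow (adjusted p 0.00088), and Aldh6a1, the methylmalonate semialdehyde dehydrogenase, by 0.51 (adjusted p 0.021). The gene lower in 1B was Aldh3a2, the fatty aldehyde dehydrogenase, named here after its value was seen: -1.20 in 1B against chow, 1.02 in HFD against chow, and -0.79 in HFD+1B against HFD.

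Genes around NADH and acetyl-CoA, the products of the pathway, moved in both directions. In the list of NADH and redox shuttles, 4 of 20 genes were higher and 0 lower in 1B against chow (median 0.02), and 7 were higher and 3 lower in HFD+1B against chow (median 0.21). Between HFD+1B and HFD, 2 of the 20 were higher and 0 lower (median 0.10), where 11% of all genes were higher. Gpd1, the cytosolic glycerol-3-phosphate dehydrogenase, rose by 1.64 in 1B (limma adjusted p 0.00044). Got1, the cytosolic aspartate aminotransferase of the malate-aspartate shuttle, rose by 1.22 in 1B (adjusted p 0.023) and by 2.88 in HFD+1B against HFD (adjusted p 8.23e-06). HFD minus chow was -1.15 for Got1 (adjusted p 0.019), and HFD+1B exceeded chow by 1.73 (adjusted p 0.00031). Nnmt, which methylates nicotinamide, rose by 1.53 in HFD+1B against chow (adjusted p 0.013).

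In the list of acetate and acetyl-CoA genes, 3 of 15 were higher and 1 lower in 1B against chow (median -0.05), and 7 were higher and 0 lower in HFD against chow (median 0.33). Against chow, HFD+1B had 6 higher and 1 lower (median 0.42), and against HFD 2 higher and 4 lower, with a median of 0.10 and a mean of -0.05. The 2 higher genes in HFD+1B against HFD were Acly and Slc16a1. Acly, which makes cytosolic acetyl-CoA from citrate, was higher by 2.29 in 1B (limma adjusted p 7.19e-06) and by 1.79 in HFD+1B against HFD (adjusted p 5.83e-05), while Acss2 was not called. Slc16a1, a monocarboxylate transporter, rose by 1.17 in 1B (adjusted p 0.00045) and by 0.93 in HFD+1B against HFD (adjusted p 0.00086). Acacb, the mitochondrial acetyl-CoA carboxylase, rose by 1.495 in 1B (adjusted p 0.022) and differed by 0.19 in HFD+1B against HFD (adjusted p 0.76). Of 20 genes of sterol and lipogenic regulation, 5 were higher and 3 lower in 1B, and 7 higher and 2 lower in HFD+1B against chow. Thrsp, a lipogenic gene, rose by 2.18 in 1B (adjusted p 0.00014), and Scd1 (stearoyl-CoA desaturase) and Insig2 rose by 2.46 and 2.22 in HFD+1B against chow (adjusted p 0.0012 and 0.00097).

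The microsomal neighbors of Cyp2e1 were mostly lower in HFD+1B. Of 15 genes of microsomal electron transfer and other cytochrome P450 of family 2, 11 were lower and 0 higher in HFD+1B against chow (median -0.55), 3 lower and 1 higher in 1B, and 6 lower in HFD. Cyp2a4 and Cyp2a5, whose sequences are nearly identical so that their probes may share signal, were lower in 1B by -2.499 and -2.20 (limma adjusted p 0.00041 and 0.00069). Cyp2f2 was lower by -0.85 in HFD+1B against chow (adjusted p 0.0005). Of 18 genes of non-oxidative ethanol metabolism (carboxylesterases, glucuronosyltransferases, and sulfotransferases among them), 11 were lower and 0 higher in HFD+1B against chow (median -0.76), and 3 were lower in 1B. Of these 18, 4 were already lower in HFD against chow (median -0.37) and 6 were lower in HFD+1B against HFD (median -0.31). Ces2a, Ces2c, and Ugt2b1 were lower by -2.10, -1.69, and -1.61 in HFD+1B against chow and were not called in 1B. Over the other scalings and filters, 10 to 11 of the microsomal genes and 9 to 12 of the non-oxidative genes were lower in HFD+1B against chow.

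Of 26 genes of the peroxisome and of hydrogen peroxide metabolism, the list that surrounds Cat, 5 were lower and 2 higher in HFD+1B against chow (median -0.08). Slc27a2, a very-long-chain acyl-CoA synthetase, and Pipox, the peroxisomal sarcosine oxidase, fell by 0.75 and 0.68 (limma adjusted p 0.0067 and 0.00025). Gpx4, a glutathione peroxidase, rose by 0.72 (adjusted p 0.0024).

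**Figure D3:**
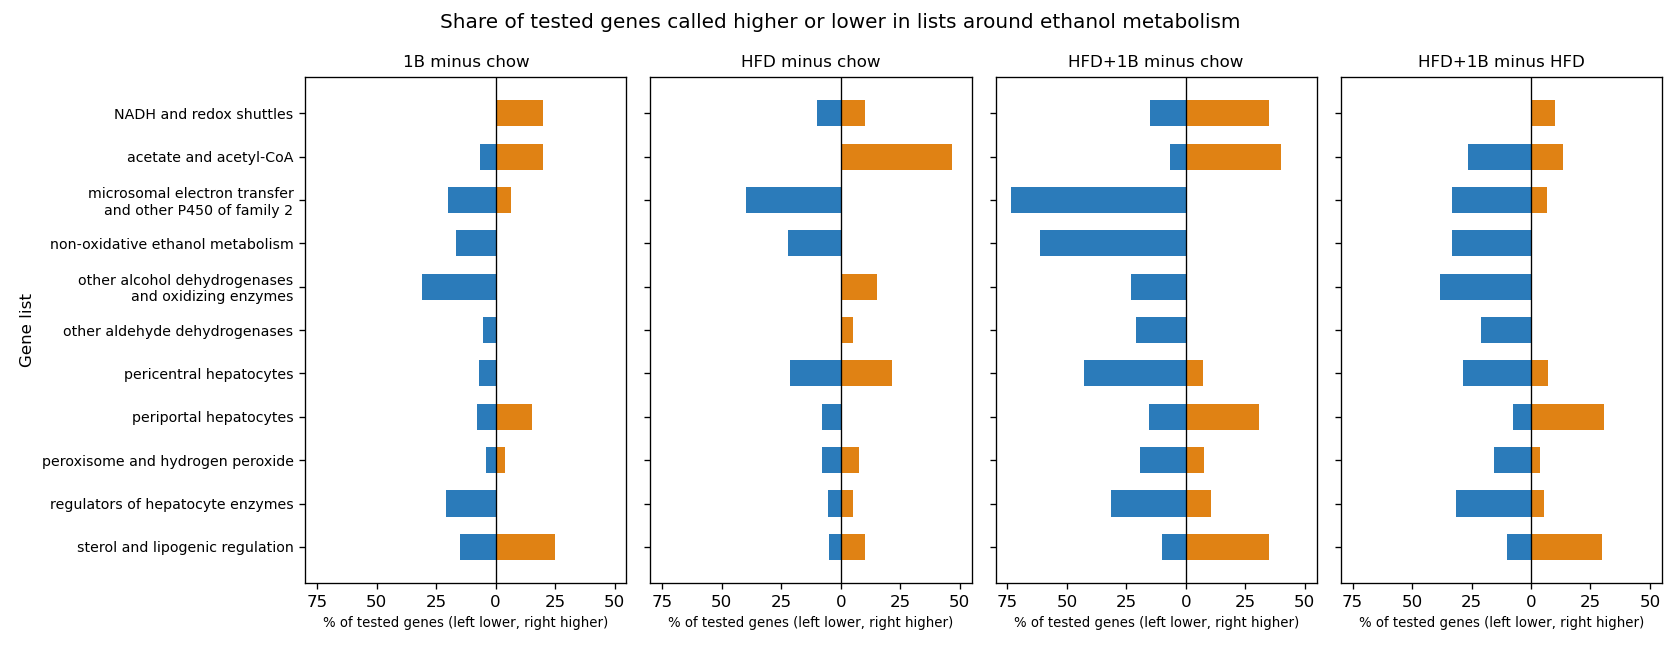
Share of tested genes (x axis, percent) called lower (blue, left) or higher (orange, right) in 11 lists around ethanol metabolism (y axis), in 4 comparisons. The microsomal and non-oxidative lists have 11 lower genes each in HFD+1B against chow, and the list of other alcohol dehydrogenases has lower genes in both ethanol comparisons.

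Regulators of hepatocyte enzymes were measured in the same mice. Of 19 tested, 4 were lower and 0 higher in 1B against chow, and 6 were lower and 2 higher in HFD+1B against chow (median -0.19). Dbp, a circadian bZIP factor that binds the D box, fell by 1.73 in 1B (limma adjusted p 0.0073) and by 1.80 in HFD+1B against HFD (adjusted p 0.0014). Ppara, the fatty acid receptor, fell by 1.06 and 1.39 (adjusted p 0.032 and 0.0014), and Nr1i3, the constitutive androstane receptor, by 0.86 and 1.37 (adjusted p 0.0073 and 5.15e-05). Their part in the differences of Adh4, Adh1, or Aldh1a1 was not tested.

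The zone of the lobule was followed by a pericentral and a periportal list, since Cyp2e1 RNA is known to lie in pericentral hepatocytes. Of 14 pericentral genes, 6 were lower and 1 higher in HFD+1B against chow (median -0.37), 1 was lower in 1B, and 3 were lower and 3 higher in HFD. Cyp1a2 and Cyp2c29 were lower by -2.68 and -2.39 in HFD+1B against chow, and by -2.39 and -2.20 already in HFD against chow. Tbx3, a pericentral transcription factor, was lower in HFD+1B by -1.09 against chow (limma adjusted p 0.00088) and by -1.22 against HFD (adjusted p 0.00054). Of 13 periportal genes, 4 were higher and 2 lower in HFD+1B against chow (median -0.07). Sds, serine dehydratase, rose by 2.10 (adjusted p 0.00048), and Hal, histidine ammonia-lyase, fell by 1.41 (adjusted p 0.00079).

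Hepatocyte markers, which check the labeled tissue, were bright in every mouse. The lowest mean log2 ratio of these markers in a mouse was in HFD, whose range overlapped those of 1B and HFD+1B. All chow mice lay above all mice of the other groups in this mean. Of 11 tested hepatocyte markers (of 12 listed), all 11 were well above background on all 17 arrays, and 0 were called by limma in 1B against chow (median -0.20, 0 at an unadjusted p under 0.05). For HFD+1B against chow, 4 were lower and 1 higher (median -0.35). For HFD+1B against HFD, 2 were higher and 3 lower (median -0.07), and in HFD against chow 3 were lower (median -0.37). The mean log2 ratio of the 11 markers in a mouse was between 0.29 and 0.37 in chow and between 0.08 and 0.21 in 1B. It lay between -0.47 and 0.11 for HFD and between -0.17 and 0.28 for HFD+1B. Their summed Cy5 intensity, which is raw and moves with the brightness of an array, lay between 390152 and 452409 for the chow mice and between 324542 and 433125 for the 1B mice. The HFD mice lay between 159015 and 391930, and the HFD+1B mice between 322724 and 442837. Beside these values Adh4 differed by -1.52 in 1B against chow and by -2.04 in HFD+1B against chow, and the part of cell composition was not tested.

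Against chow, markers of other cells were higher in HFD+1B for stellate cells above all. Of 10 stellate markers, 7 were higher and 0 lower in HFD+1B (median 0.65), 4 were higher in HFD (median 0.53), and 1 in 1B. Between HFD+1B and HFD, 3 were higher and 0 lower (median 0.11). The mean log2 ratio of the 10 stellate markers per mouse lay between -0.69 and -0.44 for chow and between -0.39 and -0.35 for 1B. For HFD it lay between -0.11 and 0.13, and for HFD+1B between -0.22 and 0.54. Relative to chow, HFD+1B had 3 of 10 neutrophil markers higher and 1 lower, 1 of 7 macrophage and Kupffer cell markers higher, and 1 of 7 sinusoidal endothelial markers higher and 3 lower. In that comparison 1 of 5 cholangiocyte, 1 of 3 erythroid, and 1 of 5 pancreatic acinar markers were higher, and 0 of 5 T cell, 0 of 4 B cell, and 0 of 5 adipocyte markers were called by limma (1, 0, and 0 at an unadjusted p under 0.05). Their part in the differences of the 10 enzymes was not tested.

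The genes whose log2 ratio followed each enzyme most closely over the mice were found among 15367 or 15368 genes bright on all arrays, by Pearson's r. These values describe the 17 mice, whose 4 groups set much of each r, and no test was made. For Adh4 they were Pbld2 (0.963) and Akr1c14 (0.962), for Aldh1a1 Elovl2 (0.963) and Hsd17b11 (0.934, 15 mice), and for Adh5 Mpv17l (0.945) and AI842136 (0.927). For Cyp2e1 they were 9330162012Rik (0.928) and Ces1b (0.876), for Adh7 Rbm19 (0.907) and Dhx33 (0.897), and for Adh1 8430408G22Rik (0.890) and Emp2 (0.888, 16 mice). Aldh1b1 was followed most closely by Man2b2 and Tmem176b (both 0.881), Acss2 by Pex14 (0.862) and Ptges2 (0.853), Cat by Agmat (0.855) and Klf1 (0.854), and Aldh2 by 1700037H04Rik (0.783) and Gnai2 (0.779, 16 mice).

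**Figure D4:**
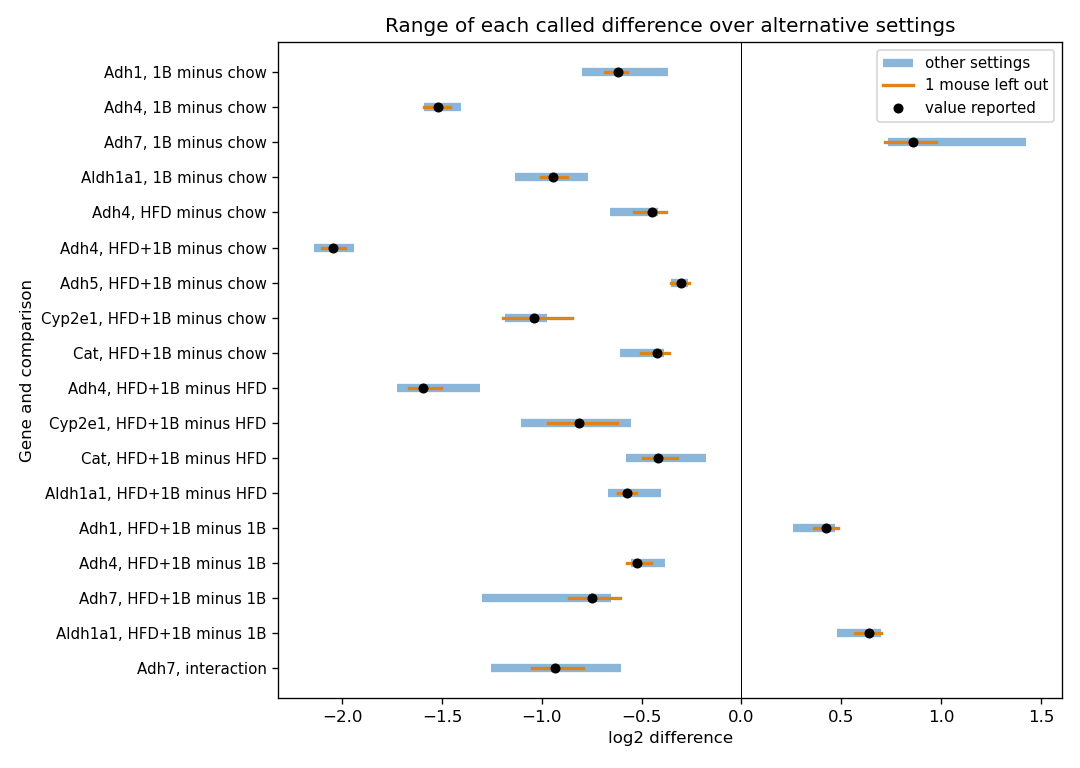
Each of the 18 called differences (y axis) as reported (black point), over alternative settings of background, scaling, filter, and fit (blue), and with 1 mouse left out at a time (orange), on the log2 scale (x axis). No range crosses 0. For HFD+1B against HFD, the alternative settings of Adh4 run from -1.73 to -1.31.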

How the data were processed

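The 17 livers were hybridized on 5 slides of 2-color Agilent arrays. The deposited scanner files, made by the authors with Agilent Feature Extraction 11.5.1.1, hold for every spot the raw median intensity of liver and reference, the median intensity of the local background, and software flags. The authors also deposited a table of log2 ratios (liver over reference) for 41174 non-control probes with gene symbols and probe sequences. Recomputed from the processed signals of the scanner files for the 40929 probes with 1 spot, these ratios differed by at most 2.7e-06. The table gave symbols, sequences, and an alternative scale.

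Background was corrected by normexp (offset 50). Outlier spots were removed, log2 ratios were loess-normalized on each array, and replicate spots were averaged. Tested probes had a Cy5 signal well above background on 4 arrays or more and a value in every group (34664 probes, 19358 genes). The 4 group means were fitted to all arrays with limma 3.58.1 (lmFit and eBayes, 13 residual degrees of freedom) in R 4.3.3, with the data.table package in version 1.17.8. Dyes were never swapped, which leaves any dye bias of a probe the same in each group. Each array is 1 mouse, and the number of arrays limits the precision. Array pairs correlated at 0.874 or less, so that none was a copy. The fit was tested on simulated data.

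The genes and lists were chosen with earlier results of these data known. The lists cover other alcohol and aldehyde dehydrogenases, acetate and acetyl-CoA, redox shuttles, microsomal, peroxisomal, and non-oxidative enzymes, lipogenic regulation, lobular zones, regulators, and cell type markers. Named genes are the 10 enzymes, per list other than the markers the 3 called genes with the largest difference in HFD+1B against chow, and per enzyme the 2 genes with the highest Pearson's r. One gene that this rule names is not reported here. Alternatives covered background, offset, scaling, filter, outlier spots, probe choice, slide and replicate blocks, each mouse left out, the samples fitted, an unmoderated test, the analysis of variance with Tukey's comparisons that the methods name, an exact permutation test, and a fold rule. Applying them to the lists was added after the data were seen.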

Additional observations from a re-analysis of the deposited data

Results flagged for a closer look

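The ethanol difference of Adh7 differed between the diets in the main fit. The interaction was -0.94 (limma adjusted p 0.0075), with 0.86 in chow-fed and -0.08 in high-fat-fed mice. The 4 1B mice lay between 0.03 and 0.80 and the 5 HFD+1B mice between -0.52 and -0.23. The probe was dim, at 36 to 146.5 in Cy5. The interaction was not called in the deposited log ratios or from Cy5 signals alone (limma adjusted p up to 0.30). HFD+1B minus HFD ran from -0.11 to 0.24 for Adh7 over the settings.

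In 1B, mouse 1 stood apart for a pair of genes. For Adh5 it was the lowest, with a gap to the next mouse that was 0.839 of the range of the group. For Cyp2e1 it was the highest, with a gap of 0.835 of the range. Over the 36 groups of at least 4 values looked at, chance alone gives about 1.8 such gaps.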

How the results depend on the processing

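All 18 called differences of the 10 enzymes kept their direction in the alternatives run, and none reversed. Tukey's comparisons, the permutation test, the fold rule, the unmoderated test, and the filters kept the same estimate, so that they could not change a direction. Leaving out a mouse of a group outside the comparison could not change it either. The calls of Adh4 in 1B and in HFD+1B against chow and HFD, and of Cyp2e1 in HFD+1B against chow, passed in each alternative that was run for them. That of Adh7 in HFD+1B against 1B passed in all but the fold rule, and Adh7 was dropped by the filter of all 17 arrays. Of the alternative values of called differences, 75 no longer passed and 531 did, and 22 values not called here passed under some alternative. Some of those 22 came from Tukey's comparisons or the permutation test, whose p was not adjusted over the probes. For differences called neither here nor in the alternative, the sign changed in 59 cases. The causes were not tested.

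In 1B against chow, the count of enzymes called was 4, and 1 with Cy5 signals alone or under the fold rule (2-fold or more, with a p that is not adjusted). Tukey's comparisons and the exact permutation test likewise used a p that was not adjusted over the probes. Their counts are therefore not on the same threshold as the limma calls, and a larger count from them is not a gain. For HFD against chow it was 1 (with the authors' log ratios also 1, but Aldh1a1, higher, in place of Adh4), and 0 with background subtracted, an offset of 10, Cy5 alone, slide as a block, or the fold rule, and 2 with outlier spots kept (Aldh1a1 added, higher) or the exact permutation test (Adh7 added, higher). HFD+1B against chow had 4, 2 with the authors' log ratios, Cy5 alone, or the fold rule, 5 with the mean of all probes or Tukey's comparisons, and 6 (1 higher) with the exact permutation test. HFD+1B against HFD had 4, 1 with median centring or the fold rule, 2 with Cy5 alone or only those groups in the fit, 5 with no filter on dim probes, Tukey's comparisons, or the exact permutation test, and 6 with the mean of all probes. For 1B against chow 5 were called with only those groups in the fit or the exact permutation test, and for HFD+1B against 1B 5 with the latter. HFD+1B against 1B had 4, 2 with median centring, 1 with Cy5 alone, and 0 with the fold rule. In the interaction it was 1, and 0 with the authors' log ratios, Cy5 alone, the fold rule, or the filter of a Cy5 signal well above background on all 17 arrays, which drops Adh7. With 1 mouse left out, the counts ran from 4 to 4, 0 to 1, 2 to 5, 2 to 5, 3 to 5, and 1 to 1 in these 6 comparisons. For HFD+1B against chow 2 were called without chow mouse 3 or 4 or HFD+1B mouse 2 or 4, and for HFD+1B against HFD 2 without HFD mouse 1 or HFD+1B mouse 2 or 4. For HFD against chow 0 were called without chow mouse 3 or 4.

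The labels do not say that a replicate number marks a shared batch, and the numbers were not taken to pair the mice, since not every pair of the same number correlated. Over 24 such pairs in different groups, deviations from the group means correlated from -0.13 to 0.48 (median 0.18, 16 over 0.1), against a median of -0.05 and 19 over 0.1 for 84 pairs of other numbers. For 21 pairs on the same slide the median was 0.20, with 16 over 0.1. Replicate number and slide went together in part, since all mice numbered 1 were on slide 1. The correlations by number and by slide are therefore not separate readings. Of the 17 arrays, 9 correlated best with an array of their own number, a hint from the data and not the design. With a replicate block the counts were 4, 1, 4, 5, 3, and 1, with Adh5 gained in HFD+1B against HFD and Adh1 lost in HFD+1B against 1B, and the probes called in the interaction rose from 1424 to 2913. With slide as a block the counts were 4, 0, 4, 4, 4, and 1 in the same order, and 2051 probes were called in the interaction. Median centring moved the median of all genes to 0.14 for the interaction and for HFD+1B minus HFD. Signal over background limits Adh7, whose difference in 1B against chow ran from 0.74 to 1.43 over the settings.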
